A study of Homo sapiens with 8 samples.

Results

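The genes described here were 10 components of the pathway that holds cells before S phase: the CDK inhibitor genes CDKN1A, CDKN1B, CDKN2A and CDKN2B, the retinoblastoma family genes RB1, RBL1 and RBL2, and the activator E2F genes E2F1, E2F2 and E2F3. They were chosen by name, as 10 of the 58302 genes in the count table, with earlier results of these data known but with no threshold on their values. The RNA came from DLD1, an established human colorectal adenocarcinoma cell line. OE-WT cells were DLD1 cells that stably overexpressed wild-type TRMT6 and TRMT61A, the subunits of the methyltransferase that places m1A on tRNA, and CTRL cells were DLD1 cells with the vector. Each group had 2 libraries, and the 2 lanes labelled for each library share 1 column of counts. The study's methods speak of biological replicates, but no source used here says whether the libraries of a group came from separately grown cultures or whether the stable cells were a clone or a pool, so the p-values measure the spread between these libraries. Both groups were cultured without any labelled drug treatment, and cycloheximide was present in the wash before lysis of all samples.

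CDK inhibitors bind cyclin-dependent kinases or their cyclin complexes. CDKN1A (p21) and CDKN1B (p27) are of the CIP/KIP family and act on cyclin complexes of CDK2 and others, whereas CDKN2A (p16INK4A, and p14ARF from another reading frame) and CDKN2B (p15) are of the INK4 family and act on CDK4 and CDK6. When these kinases are inhibited, RB1 and its relatives RBL1 (p107) and RBL2 (p130), called pocket proteins, stay bound to E2F factors and keep E2F target genes repressed, and phosphorylation of the pocket proteins releases this hold. Products of CDKN1A and CDKN2A are widely used as markers of cellular senescence, and E2F target genes are transcribed as cells enter S phase. The read counts measure steady-state RNA and give neither protein amounts nor RB phosphorylation.

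Promoter sequences are shown for the 4 of the 10 genes whose RefSeq promoter holds a canonical E2F motif, since these include both E2F genes that rose in OE-WT cells. Each runs 5′ to 3′ on the strand of the gene, from 250 bases before to 50 bases after the start site, in the build GRCh38.p14, and the capitals mark the motif. The motif was searched on both strands as TTTCCCGC, TTTCGCGC, TTTGCCGC or TTTGGCGC, and no matches overlapped one another in these 4 promoters.
E2F2 (chr1:23531184-23531483, minus strand): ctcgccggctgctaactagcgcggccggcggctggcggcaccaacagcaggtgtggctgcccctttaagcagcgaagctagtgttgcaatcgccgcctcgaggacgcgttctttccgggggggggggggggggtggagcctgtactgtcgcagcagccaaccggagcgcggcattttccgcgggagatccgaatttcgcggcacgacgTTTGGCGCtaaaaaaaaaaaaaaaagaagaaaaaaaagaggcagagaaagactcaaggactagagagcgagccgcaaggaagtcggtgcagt
E2F3 (chr6:20401629-20401928, plus strand): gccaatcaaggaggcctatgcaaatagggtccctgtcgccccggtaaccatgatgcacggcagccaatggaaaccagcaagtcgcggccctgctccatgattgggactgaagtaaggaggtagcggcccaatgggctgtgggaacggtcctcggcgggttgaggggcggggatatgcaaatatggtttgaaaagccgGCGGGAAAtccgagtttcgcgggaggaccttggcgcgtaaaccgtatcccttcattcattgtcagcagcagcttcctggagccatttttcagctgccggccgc
E2F1 (chr20:33686336-33686635, minus strand): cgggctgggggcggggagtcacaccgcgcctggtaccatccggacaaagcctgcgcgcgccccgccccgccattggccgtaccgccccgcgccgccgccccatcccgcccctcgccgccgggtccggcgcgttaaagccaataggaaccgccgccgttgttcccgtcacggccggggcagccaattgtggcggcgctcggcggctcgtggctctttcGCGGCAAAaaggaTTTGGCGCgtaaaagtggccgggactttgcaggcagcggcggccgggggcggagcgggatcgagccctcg
RBL1 (chr20:37095948-37096247, minus strand): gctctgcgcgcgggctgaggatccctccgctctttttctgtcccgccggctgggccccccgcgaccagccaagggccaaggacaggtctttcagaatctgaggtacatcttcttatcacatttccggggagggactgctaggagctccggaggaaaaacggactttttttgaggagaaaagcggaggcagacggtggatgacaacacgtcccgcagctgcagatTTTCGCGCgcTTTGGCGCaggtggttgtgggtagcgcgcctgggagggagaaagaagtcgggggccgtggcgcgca

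All the matches lay within a short stretch upstream of the start site. The E2F2 match began 42 bases before the start site and the E2F3 match 53 bases before it. E2F1 held matches that began 33 and 20 bases before its start, and RBL1 held matches that began 26 and 16 bases before its start. The table had 13 promoters for the 10 genes, of which 4 held a match (30.8%), against 1164 of 35116 promoters of the same length (3.31%). The second E2F3 promoter, both promoters of CDKN2A and of RBL2, and the promoters of CDKN1A, CDKN1B, CDKN2B and RB1 held none of these letters, and the only RB1 entry lay inside the annotated gene. A match describes letters in a sequence and is not a measured binding site.

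The libraries held 10327498 to 12379671 counts. TRMT6 and TRMT61A were higher in OE-WT cells, with log2 fold changes of 1.86 ± 0.08 and 1.21 ± 0.07 (SE), the direction that the labels give. Of 14133 genes tested with edgeR's quasi-likelihood test, 1334 were higher (9.44%) and 1642 lower (11.6%) in OE-WT cells at a Benjamini-Hochberg adjusted p below 0.05, together 21.1% of the genes tested, and 44.8% of these calls were higher. With scaling by library size only, 23.0% of the calls were higher. The epithelial genes EPCAM, CDH1, KRT8, KRT18, KRT19 and CDX2 had 1066 to 65922 counts per library, VIL1 had 36 to 45, and CDX1 had at most 1. Of the 9 epithelial markers tested, KRT8 and KRT18 were higher in OE-WT cells, and KRT20, CEACAM5, CDH1 and KRT19 were lower, with log2 fold changes of -1.52, -1.33, -0.29 and -0.19. CEACAM5 had 9 and 7 counts in OE-WT against 27 and 24 in CTRL libraries, and KRT20 83 and 101 against 349 and 312. CEACAM5 passed the filter on low counts only through CTRL cells, where it is higher, so its call is given as a description. Of 8 markers of fibroblasts, leukocytes and endothelium, COL1A1 (18 to 22 counts), PDGFRB (7 to 12) and VWF (5 to 30) had over 3 counts in a library, and COL1A2 and CD3E were at 0. VWF was lower in OE-WT cells (5 and 6 counts against 30 and 14). It also passed the filter on low counts only through CTRL cells, so this call is likewise only a description. The part of these marker differences in the results below was not tested.

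In DLD1 cells, the 10 genes spanned a wide range of levels, which were compared between genes as RPKM, that is, counts per 1000000 scaled counts (CPM) and per kilobase of annotated exon. This length joins all annotated exons of a gene, 9.255 kilobases for CDKN1B and 5.19 for E2F3. It was not checked against the transcripts of these cells, and the order of the genes depends on it. In CTRL cells, CDKN1A was the highest, at 22.1 ± 2.81 RPKM (SD, n = 2), followed by E2F1 at 15.1 ± 1.42. CDKN1B (3.36 ± 0.30), E2F3 (3.01 ± 0.35) and E2F2 (2.27 ± 0.20) came next, near the median of all genes tested, 3.01 RPKM. CDKN2B (1.39 ± 0.01), RB1 (1.35 ± 0.19) and RBL2 (1.22 ± 0.03) followed, then RBL1 (0.602 ± 0.113), with CDKN2A the lowest at 0.356 ± 0.090. In this order, the libraries of CDKN1B and E2F3, of CDKN2B and RB1, and of RB1 and RBL2 overlapped, and no other neighbours did. CDKN1A was thus above 87.6% of the genes tested in CTRL cells, and CDKN2A above 10.3%.

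In OE-WT cells, CDKN1A (21.7 ± 2.13 RPKM) and E2F1 (15.8 ± 0.51) were again the highest and RBL1 (0.894 ± 0.027) and CDKN2A (0.128 ± 0.034) the lowest. E2F3, at 4.31 ± 0.20 RPKM, stood above CDKN1B, at 3.48 ± 0.01, and the libraries of these 2 genes no longer overlapped. In CPM, without division by exon length, CDKN1B was above E2F3 in both groups. The mean CPM values were 32.2 against 22.35 in OE-WT and 31.05 against 15.6 in CTRL cells. In the plot of RPKM by library, the points of the groups lie apart for CDKN2A, CDKN2B, RBL1, E2F2 and E2F3. Such separation was common: over all genes tested, both OE-WT libraries were above both CTRL libraries for 29.9% and below both for 30.2%.

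**Figure D1:**
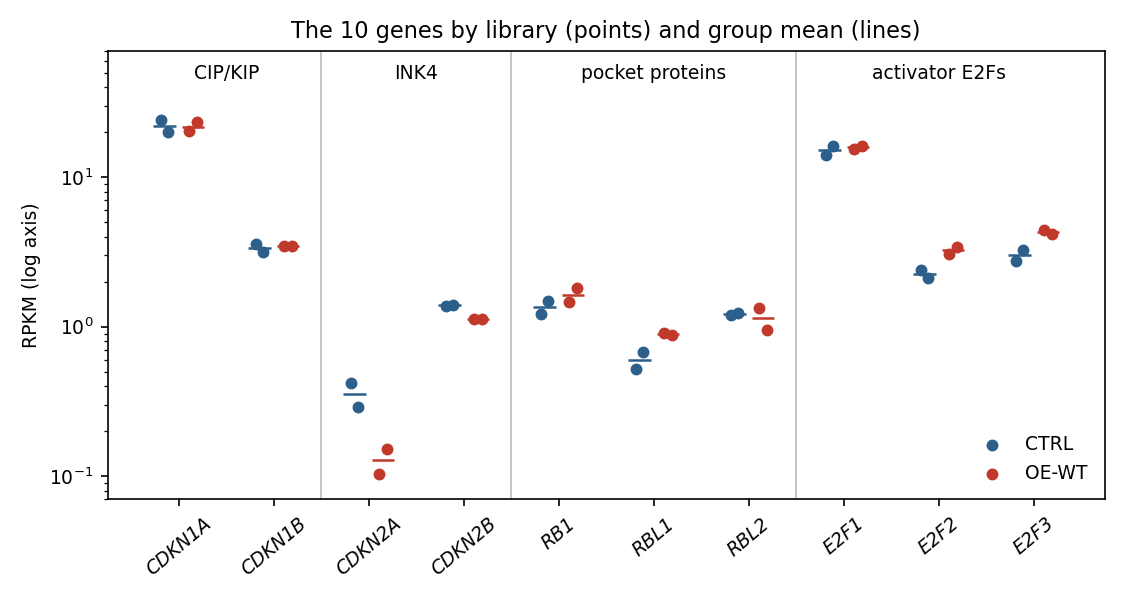
RPKM of the 10 genes on a log axis, in 2 CTRL libraries (blue) and 2 OE-WT libraries (red), with lines at the group means. CDKN1A and E2F1 lie at 14.1 RPKM or above in every library, and CDKN2A lies at 0.420 RPKM or below.

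Comparing OE-WT with CTRL cells, 3 of the 10 genes passed the test over all genes: E2F2 and E2F3 were higher and CDKN2A was lower. CDKN2A passed the filter on low counts only through CTRL cells, where it is higher, so its call is given as a description and supports nothing further. In bulk RNA, fewer cells that express a gene and less RNA per cell cannot be told apart. The 2 higher genes were 20.0% of the 10 and the 1 lower gene was 10.0%, beside 9.44% and 11.6% of all genes tested. By the thresholds of the study (a log2 fold change beyond 1 in either direction with an unadjusted p below 0.05), 1 of the 10 passed, beside 3.15% of all genes tested, and it was CDKN2A, to which the same limit applies. Both OE-WT libraries were above both CTRL libraries in CPM for 3 of the 10 genes and below them for 2, whereas over all genes tested these shares were 29.9% and 30.2%. An exact permutation test of 2 against 2 libraries cannot go below a two-sided p of 0.333, so the calls rest on the spread that edgeR estimates across genes. In the plot of log2 fold changes, the intervals of the 10 genes are narrowest for CDKN1A, CDKN1B and E2F1 and widest for CDKN2A.

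**Figure D2:**
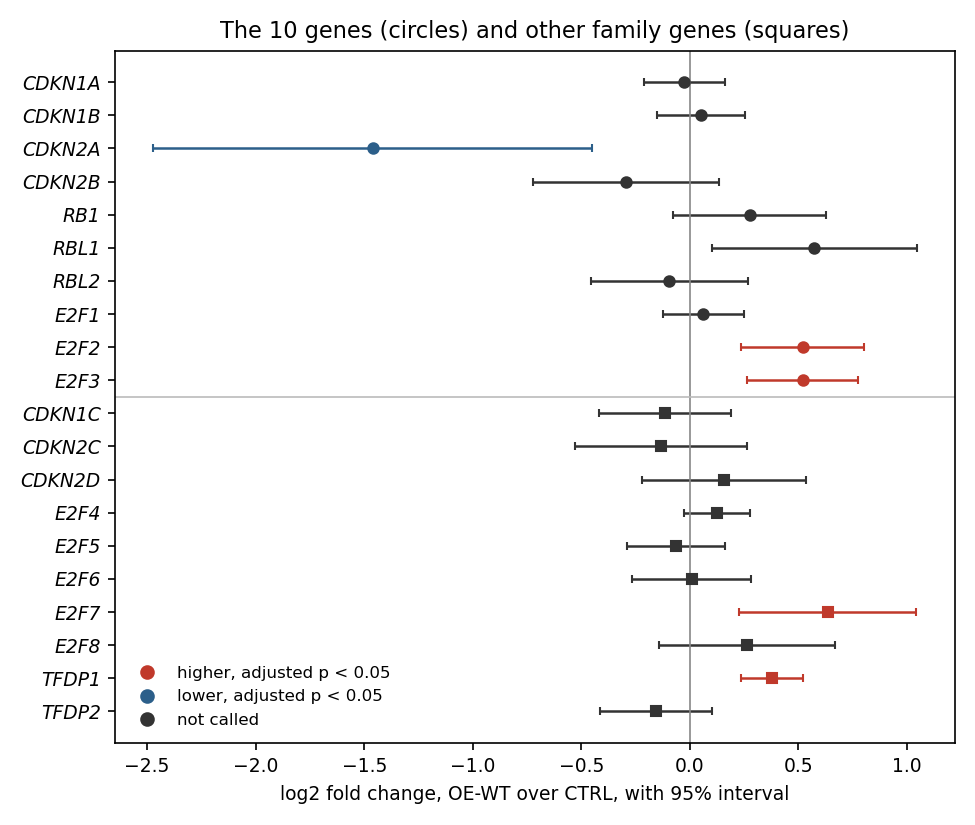
Log2 fold change of OE-WT over CTRL with its 95% interval for the 10 genes (circles) and for 10 other genes of the same families (squares), coloured where the adjusted p is below 0.05. E2F2, E2F3, E2F7 and TFDP1 lie to the right of 0, and CDKN2A lies to the left with the widest interval, from -2.47 to -0.45.

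The CIP/KIP genes did not pass the test. CDKN1A (ENSG00000124762, chromosome 6, 36676460 to 36687337, plus strand) encodes p21, which arrests the cycle in response to many kinds of stress. It had 601 and 708 counts in OE-WT against 928 and 742 in CTRL, which is 60.5 and 69.6 CPM against 72.1 and 60.2 CPM. The 4 libraries were interleaved, with the highest and the lowest both in CTRL cells. OE-WT over CTRL gave a log2 fold change of -0.03 ± 0.09 (SE), with a 95% interval from -0.21 to 0.16 and an edgeR adjusted p of 0.873. DINOL, a noncoding RNA gene on the opposite strand, shares 4.87% of the CDKN1A exon bases and is not among the genes counted.

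CDKN1B (ENSG00000111276, chromosome 12, 12685498 to 12722369, plus strand) encodes p27, whose abundance is largely set by ubiquitin-dependent degradation. It had 320 and 327 counts in OE-WT against 425 and 358 in CTRL, or 32.2 and 32.1 CPM against 33.0 and 29.1 CPM. The OE-WT libraries lay between the CTRL libraries. OE-WT over CTRL gave a log2 fold change of 0.05 ± 0.10 (SE), with a 95% interval from -0.15 to 0.25 and an edgeR adjusted p of 0.758. CDKN1C (p57), the remaining CIP/KIP gene, had 11.1 and 13.0 CPM in OE-WT against 12.6 and 13.5 CPM in CTRL, with an edgeR adjusted p of 0.628.

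Among the INK4 genes, CDKN2A had fewer reads in OE-WT than in CTRL libraries, but its call rested on few reads and was lost in 4 of the 8 alternatives that gave it an adjusted p. CDKN2A (ENSG00000147889, chromosome 9, 21967752 to 21995301, minus strand) had 4 and 6 counts in OE-WT against 21 and 14 in CTRL, or 0.403 and 0.590 CPM against 1.63 and 1.14 CPM. Every OE-WT library was below every CTRL library. OE-WT over CTRL gave a log2 fold change of -1.46 ± 0.49 (SE), a 0.363-fold level, with a 95% interval from -2.47 to -0.45 and an edgeR adjusted p of 0.036. CDKN2A was the only one of the 10 genes that passed the filter on low counts through CTRL cells alone, the group where it is higher, and with at least 10 counts required in every library it was not tested. The adjusted p was 0.19 without OE-WT replicate 1, 0.0532 without OE-WT replicate 2, 0.283 without CTRL replicate 1, and 0.0549 without the filter, and DESeq2 gave it no adjusted p.

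The deposited counts sum the CDKN2A transcripts, so p16INK4A and p14ARF RNA cannot be told apart. CDKN2B-AS1 (ANRIL), transcribed from the opposite strand, shares 593 of the annotated CDKN2A exon bases (15.3%). It had 1, 1, 0 and 1 counts in OE-WT replicates 1 and 2 and CTRL replicates 1 and 2, too few for a comparison. The longest stretch that transcripts of CDKN2A and CDKN2B share exactly was 80 bases, the longest among the 45 pairs of the 10 genes.

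CDKN2B (ENSG00000147883, chromosome 9, 22002903 to 22009305, minus strand) encodes p15, an INK4 inhibitor that TGF-beta signalling can induce. It had 45 and 46 counts in OE-WT against 71 and 69 in CTRL, or 4.53 and 4.52 CPM against 5.52 and 5.60 CPM. Both OE-WT libraries were below both CTRL libraries, but the log2 fold change of -0.30 ± 0.21 (SE), with a 95% interval from -0.73 to 0.13, did not pass the test (edgeR adjusted p = 0.335). CDKN2C (p18) had 5.72 ± 0.17 CPM in OE-WT against 6.28 ± 0.08 in CTRL cells, and CDKN2D (p19) had 7.26 ± 0.30 and 6.51 ± 0.36 CPM (SD, n = 2 each). Neither passed the edgeR test, with adjusted p of 0.671 and 0.583. The summed INK4 level of CDKN2A and CDKN2B was 1.26 ± 0.03 RPKM in OE-WT against 1.75 ± 0.08 in CTRL cells, most of it from CDKN2B. CDKN2A gave 0.128 and 0.356 RPKM of these sums, and CDKN2B 1.13 and 1.39. The sum was not tested, and the limit given above for CDKN2A applies to it.

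The other genes listed beside CDKN2A and CDKN2B at 9p21 were CDKN2B-AS1, CDKN2A-DT, MTAP, DMRTA1 and ELAVL2. MTAP, which encodes a methionine salvage enzyme, was the 1 of these 5 with enough counts for the test. It had 16.7 and 16.9 CPM in OE-WT against 12.9 and 14.5 CPM in CTRL cells, a log2 fold change of 0.30 ± 0.13 (SE) that did not pass (edgeR adjusted p = 0.115). CDKN2A-DT and DMRTA1 were at 0 counts in every library, and ELAVL2 had 1 count in 1 CTRL library.

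None of the pocket protein genes passed the test. RB1 (ENSG00000139687, chromosome 13, 48303744 to 48599436, plus strand) encodes the retinoblastoma protein, which binds the activator E2Fs. It had 94 and 118 counts in OE-WT against 101 and 118 in CTRL, or 9.47 and 11.6 CPM against 7.85 and 9.58 CPM. The groups overlapped, and the log2 fold change was 0.28 ± 0.17 (SE), with a 95% interval from -0.08 to 0.63 and an edgeR adjusted p of 0.264.

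RBL1 (ENSG00000080839, chromosome 20, 36996349 to 37095997, minus strand) encodes p107, itself the product of an E2F-regulated gene. It had 54 and 53 counts in OE-WT against 40 and 50 in CTRL, or 5.44 and 5.21 CPM against 3.11 and 4.06 CPM. Both OE-WT libraries were above both CTRL libraries. The log2 fold change of 0.57 ± 0.23 (SE) was the highest of the 10 genes, with a 95% interval from 0.10 to 1.04, and at these counts it did not pass (edgeR adjusted p = 0.078). A gene on the opposite strand, ENSG00000269846, shares 3.58% of the RBL1 exon bases and had 10 to 17 counts per library.

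RBL2 (ENSG00000103479, chromosome 16, 53433977 to 53491648, plus strand) encodes p130, the pocket protein of the DREAM complex in quiescent cells. It had 108 and 78 counts in OE-WT against 125 and 124 in CTRL, or 10.9 and 7.67 CPM against 9.72 and 10.1 CPM. The CTRL libraries lay between the OE-WT libraries, with a log2 fold change of -0.09 ± 0.17 (SE) and an edgeR adjusted p of 0.749. AKTIP and ENSG00000279344 on the opposite strand share 7.51% and 8.89% of its exon bases and had 251 to 313 and 10 to 22 counts per library. Reads from these overlaps can be told apart only if the counting used strand, and that setting was not given in the sources used here.

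Of the activator E2F genes, E2F2 and E2F3 were higher in OE-WT cells and E2F1 did not pass the test, and the difference between their changes was not itself tested. E2F3 (ENSG00000112242, chromosome 6, 20401879 to 20493714, plus strand), whose product activates S-phase genes when free of RB, had 229 and 220 counts in OE-WT against 184 and 208 in CTRL, or 23.1 and 21.6 CPM against 14.3 and 16.9 CPM. The deposited counts sum the transcripts of both E2F3 promoters named above, which cannot be told apart. Both OE-WT libraries were above both CTRL libraries, although the raw counts differ less than the scaled values, since the CTRL libraries were deeper. OE-WT over CTRL gave a log2 fold change of 0.52 ± 0.12 (SE), a 1.43-fold level, with a 95% interval from 0.26 to 0.78 and an edgeR adjusted p of 0.0043. E2F3 kept an adjusted p below 0.05 in each alternative except without CTRL replicate 1, where it was 0.0574 with a log2 fold change of 0.40.

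E2F2 (ENSG00000007968, chromosome 1, 23506438 to 23531233, minus strand), a close relative of E2F3, had 166 and 191 counts in OE-WT against 169 and 143 in CTRL, or 16.7 and 18.8 CPM against 13.1 and 11.6 CPM. Both OE-WT libraries were again above both CTRL libraries. The log2 fold change was 0.52 ± 0.14 (SE), with a 95% interval from 0.24 to 0.80 and an edgeR adjusted p of 0.0086. The adjusted p was 0.0742 without OE-WT replicate 2, 0.061 without CTRL replicate 2 and 0.0753 with DESeq2, with log2 fold changes of 0.42, 0.43 and 0.52.

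E2F1 (ENSG00000101412, chromosome 20, 33675477 to 33686385, minus strand), the most abundant of these factors in RNA per length, did not pass the test. It had 412 and 442 counts in OE-WT against 489 and 535 in CTRL, or 41.5 and 43.4 CPM against 38.0 and 43.4 CPM. The OE-WT libraries lay within the range of the CTRL libraries or at its upper end, with a log2 fold change of 0.06 ± 0.09 (SE), a 95% interval from -0.12 to 0.25 and an edgeR adjusted p of 0.671. Of the summed RPKM of E2F1, E2F2 and E2F3, E2F1 made up 67.3% and 68.0% in OE-WT against 73.2% and 75.0% in CTRL. E2F3 made up 19.4% and 17.5% against 14.3% and 15.1%, and E2F2 13.3% and 14.5% against 12.5% and 9.88%. The groups did not overlap for any of these shares, which 2 libraries per group cannot test below a p of 0.333.

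Of the 11 other family genes, 10 were tested, and 2 rose and none fell, beside 9.44% and 11.6% of all genes. TFDP1, the DP1 subunit with which E2F factors bind DNA, had 159 and 149 CPM in OE-WT against 114 and 123 CPM in CTRL cells. Its log2 fold change was 0.38 ± 0.07 (SE), with an edgeR adjusted p of 0.00041, and the adjusted p stayed at or below 0.00782 in all 10 alternatives. E2F7, an atypical repressor E2F that is also listed among the E2F targets, had 9.17 and 6.88 CPM in OE-WT against 5.29 and 5.03 CPM in CTRL cells, a log2 fold change of 0.63 ± 0.20 (SE) with an edgeR adjusted p of 0.025. That call was lost in 5 of 10 alternatives, with an adjusted p of 0.303 without OE-WT replicate 1, 0.059 without CTRL replicate 1, 0.0733 without CTRL replicate 2, 0.17 with DESeq2 and 0.0569 without the filter.

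The remaining factors did not pass. E2F4, the main E2F of quiescent cells, had 75.4 ± 0.69 CPM in OE-WT against 69.1 ± 2.94 in CTRL cells (SD, n = 2 each), with a log2 fold change of 0.13. The log2 fold changes of E2F5, E2F6 and E2F8 were -0.06, 0.01 and 0.26, and that of TFDP2, the other DP partner, was -0.16. TFDP3 was at 0 counts in every library.

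Genes that the pathway acts on and genes that act on it were described from lists. These were written from general knowledge, with earlier results of these data known. Among 48 E2F targets, all of which were tested, 27 rose (56.2%) and none fell in OE-WT cells, beside 9.44% and 11.6% of all genes, with a median log2 fold change of 0.29 beside 0.01 for all genes tested. Both OE-WT libraries were above both CTRL libraries for 42 of the 48, beside 29.9% of all genes tested. With DESeq2 the number that rose was 17, and with library size only it was 18, and none fell under any alternative. Of the list, 6 genes are also in other lists described here: CCNE1, CCNE2, E2F7, E2F8, EZH2 and MYBL2. The plot of the lists shows the E2F targets shifted to the right of all genes.

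**Figure D3:**
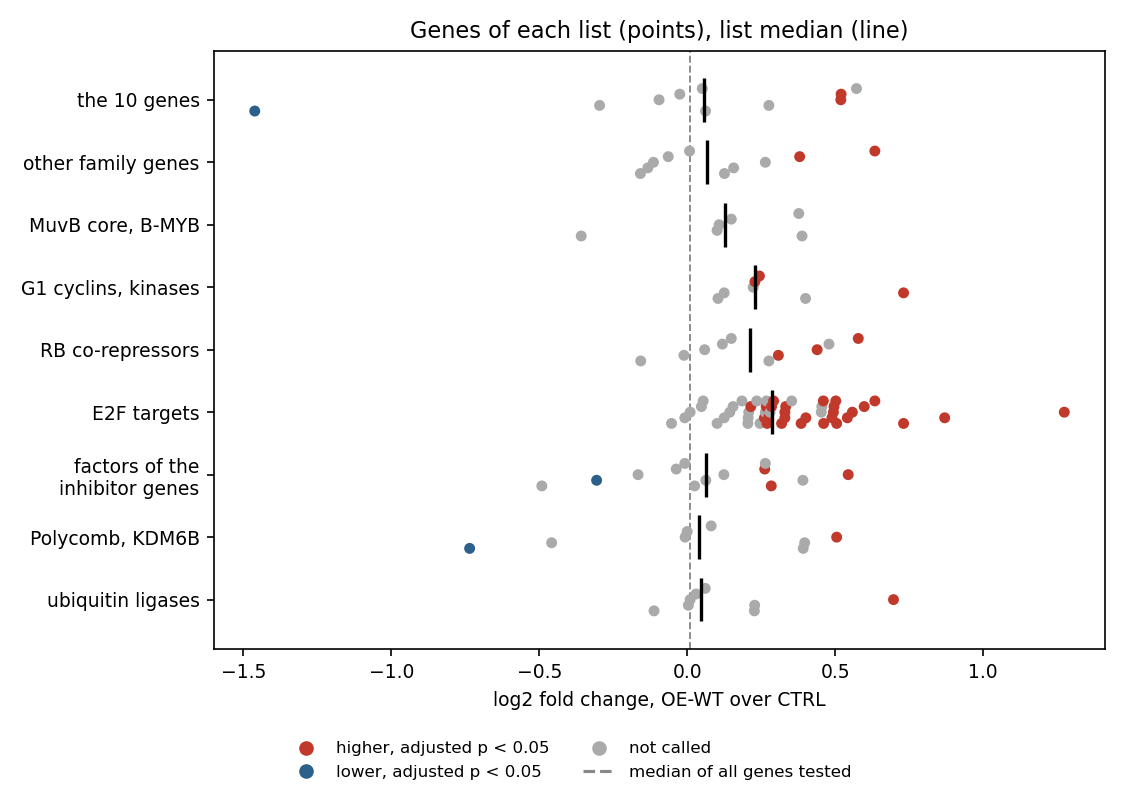
Log2 fold change of OE-WT over CTRL for each gene tested in each list, with the list median (black line) and the median of all genes tested (dashed line). Of the 48 E2F targets, 46 lie to the right of 0 and 27 are coloured as higher, with the list median at 0.29. Of all 14133 genes tested, 7229 had a log2 fold change above 0.

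CLSPN, which encodes the checkpoint mediator claspin, rose the most of the E2F targets, from 3.19 and 2.84 CPM in CTRL cells to 7.15 and 7.47 CPM in OE-WT cells. Its log2 fold change was 1.27 ± 0.21 (SE), with an edgeR adjusted p of 0.00018. POLA1, the catalytic subunit of DNA polymerase alpha, rose by 0.87 ± 0.21 (SE) on the log2 scale, with an edgeR adjusted p of 0.005 (0.0663 with DESeq2). CCNE2 (cyclin E2) was called at 0.73 ± 0.25 (SE), with an edgeR adjusted p of 0.042, but its adjusted p was 0.513 without OE-WT replicate 1, 0.287 without CTRL replicate 1, 0.198 with DESeq2 and 0.102 without the filter. The genes of the replicative helicase, MCM2 to MCM7, which were picked out after their values were seen, all rose, with log2 fold changes of 0.27 to 0.54, and with library size only 4 of the 6 were called.

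Of the 48 E2F targets, 41 had a RefSeq promoter in the table, and 23 of these genes held the E2F motif described above. Of the 23, 15 rose (65.2%), and of the 18 with a promoter but no match, 8 rose (44.4%). Of the 7 E2F targets without a promoter in the table, 4 rose (57.1%). The difference between these shares was not tested. Over all genes tested, 679 had a promoter with the motif, of which 108 rose (15.9%) and 64 fell (9.43%), with a median log2 fold change of 0.09. For the 9498 with a promoter but no match, 9.85% rose and 12.1% fell, with a median of 0.01.

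Among the other partners of the pathway, 3 of 7 G1 cyclins and kinases tested (42.9%) rose and none fell, beside 9.44% and 11.6% of all genes: CCNE2, CCND1 (cyclin D1) by 0.24 and CDK4 by 0.23 on the log2 scale. With library size only, or with DESeq2, or without CTRL replicate 1, this number was 1. All 7 had a log2 fold change above 0, beside 7229 of the 14133 genes tested, and CCND2 had at most 1 count in a library. The adjusted p of CCND1 was 0.123 without OE-WT replicate 1 and 0.167 without CTRL replicate 1, and that of CDK4 was 0.0915 without CTRL replicate 2. Of 10 co-repressors of RB, the lysine demethylase gene KDM5A (0.58), the histone deacetylase gene HDAC2 (0.44) and the DNA methyltransferase gene DNMT1 (0.31) rose (30.0%) and none fell, beside 9.44% and 11.6% of all genes. HDAC2 passed in all 10 alternatives, whereas without CTRL replicate 1 the adjusted p of KDM5A was 0.234 and that of DNMT1 0.071, and KDM5A was also lost without OE-WT replicate 2 (0.148) and DNMT1 without OE-WT replicate 1 (0.118). KDM5A was further lost with DESeq2 (0.198), without the filter (0.0651) and with library size only (0.0519), and DNMT1 with library size only (0.0597). The MuvB core forms the DREAM complex with RBL2 and E2F4 and joins B-MYB in cycling cells. Of the 6 genes of this list, none passed edgeR's test, beside 9.44% that rose and 11.6% that fell of all genes, and none passed with DESeq2. At these shares, so few genes cannot show that the list was unchanged.

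The next list held 13 transcription factors and related regulators known to act on the inhibitor genes, to activate or to repress, together called transcription factors here. Of these 13, 3 rose (23.1%): FOXO1 (0.54), ID1 (0.28) and SP1 (0.26). SMAD3, a mediator of TGF-beta signalling, fell by 0.31 on the log2 scale and was 7.69% of the list. Of all genes tested, 9.44% rose and 11.6% fell. The calls of FOXO1 (adjusted p = 0.18) and ID1 (0.138) were lost without OE-WT replicate 1, that of FOXO1 also without CTRL replicate 1 (0.199), and that of SP1 without OE-WT replicate 2 (0.0983) or CTRL replicate 2 (0.128). Without OE-WT replicate 1, 2 of the 13 were called. DESeq2 called none of the 13, and with library size only 2 were called, without the filter 1, so the calls of this list depend on the test, the scaling and the filter.

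Polycomb proteins hold the CDKN2A locus silent in many proliferating cells, and the demethylase KDM6B removes a mark that they place. Of 8 genes of this list, 1 fell and 1 rose (12.5% each, beside 11.6% and 9.44% of all genes). BMI1 fell from 25.3 and 28.8 CPM in CTRL cells to 18.8 and 13.7 CPM in OE-WT cells, a log2 fold change of -0.74 ± 0.13 (SE) with an edgeR adjusted p of 0.00038. EZH2, the methyltransferase of PRC2, rose by 0.51 ± 0.15 (SE) on the log2 scale (edgeR adjusted p = 0.022), a call that was lost in 6 of 10 alternatives. Those were DESeq2 (adjusted p = 0.162), no filter (0.0547), library size only (0.053), and the fits without OE-WT replicate 1 (0.124), CTRL replicate 1 (0.0629) or CTRL replicate 2 (0.0945).

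Of 8 genes of the ubiquitin ligases of p27 and cyclin E, 1 rose (12.5%) and none fell, beside 9.44% and 11.6% of all genes, so the share of this list is near that of all genes. SKP2, the F-box protein that directs p27 to degradation, rose from 17.0 and 17.1 CPM in CTRL cells to 28.7 and 26.5 CPM in OE-WT cells. The log2 fold change was 0.70 ± 0.11 (SE), with an edgeR adjusted p of 9.9e-05, and it passed in all 10 alternatives with an adjusted p of at most 0.000882. CDKN1B RNA, which encodes its substrate, did not pass, as given above.

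**Figure D4:**
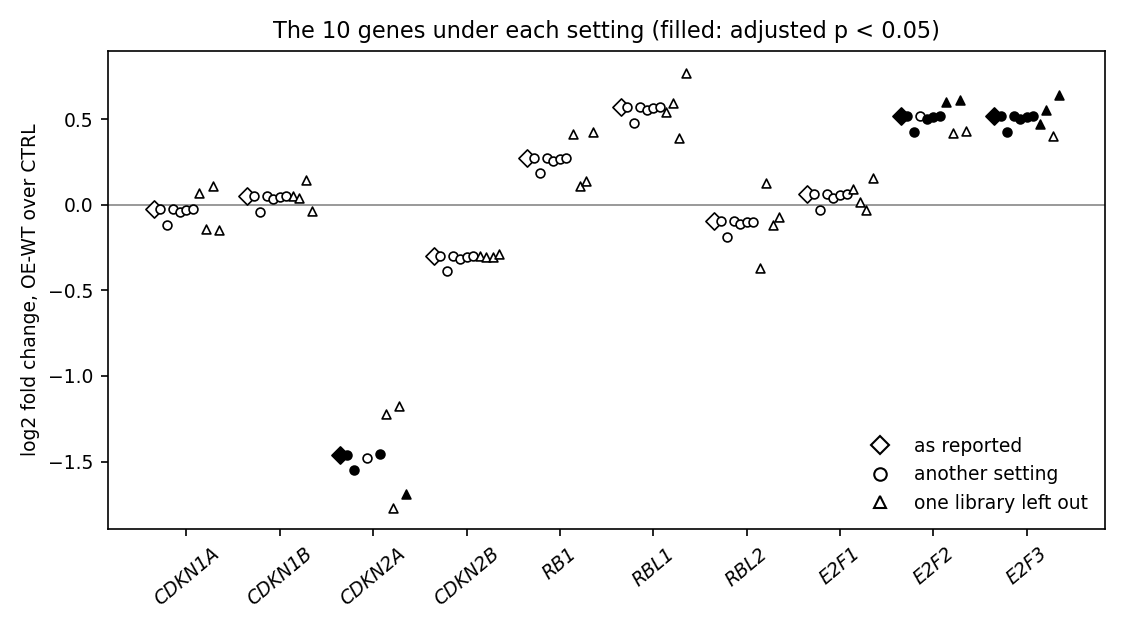
Log2 fold change of the 10 genes as reported (diamonds), under another setting (circles) and with 1 library left out (triangles), filled where the adjusted p is below 0.05. E2F2 and E2F3 lie between 0.40 and 0.64 throughout, CDKN2A between -1.77 and -1.17, and CDKN1A, CDKN1B, RBL2 and E2F1 lie on both sides of 0.

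The plot of settings sets the genes side by side. RBL1 had a log2 fold change of 0.39 to 0.77 and RB1 of 0.11 to 0.43 over the 10 alternatives, and neither passed in any of them. CDKN2B lay between -0.39 and -0.29 and did not pass either. CDKN1A ranged from -0.15 to 0.11, with an adjusted p of at least 0.295.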

How the data were processed

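RNA-seq read counts per Ensembl gene were analysed as deposited by the authors. The labels' processing notes list HISAT2 2.2.1, featureCounts 2.0.0 and DESeq2 1.34.0 with GRCh38, poly(A) selection and a stranded kit. The study's methods instead name Cutadapt, HISAT2, HTSeq and removal of ribosomal RNA, and 3 biological replicates per group, where the labels give 2 libraries per group with 2 lanes each. The strand setting and the annotation release of the counting were not given in the sources used here. The deposited table holds raw counts and no normalised columns.

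The 10 genes and the lists were chosen with earlier results of these data known. Counts were filtered with filterByExpr (minimum count of 10), scaled by TMM and tested with edgeR 4.0.16 (quasi-likelihood, R 4.3.3), OE-WT against CTRL, with Benjamini-Hochberg adjustment over all 14133 genes tested. The standard error was taken from the log2 fold change and the F statistic, and 95% intervals use the total degrees of freedom. CPM and RPKM use TMM-scaled totals, and RPKM uses union exon lengths of GENCODE release 44, which also gave gene coordinates (GRCh38) and symbols (57532 of 58302 identifiers). Library depth was 10327498 to 12379671 counts, at which 3 counts equal 0.233 to 0.302 CPM.

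Outside the 10 genes, the text names TRMT6, TRMT61A, the other family genes, the 9p21 neighbours, genes that overlap one of the 10, cell type markers and at most 4 called genes per list and direction; others are said to be picked after their values were seen. A gene and a list are not reported here. Promoters were from RefSeq (GRCh38.p14). Alternatives were other scalings (DESeq2 size factors, library size only), DESeq2 1.42.0, a replicate block, looser or stricter filters (1 count in all, or 10 counts in each of the libraries) and leaving out each library in turn. The edgeR script was tested on simulated data. Figures were drawn with matplotlib 3.10.9.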

Additional observations from a re-analysis of the deposited data

How the results depend on the processing

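Over the 10 alternatives, the number of the 10 genes called ranged from 1 to 3 and the number of all genes called from 1373 to 3184. DESeq2 called 1373 genes, 1 of the 10 genes, 1 other family gene, 17 E2F targets, 1 G1 cyclin or kinase, 0 of the transcription factors and 1 Polycomb gene, and 288 genes passed the thresholds of the study. Those thresholds were passed by 738 genes without the filter, by 216 with at least 10 counts in every library, and by 445 as reported. Without the filter, 1 other family gene, 1 transcription factor and 1 Polycomb gene were called, and with library size only 1 G1 gene and 2 transcription factors. With 1 library left out, the lone library of a group is taken to vary like the other group. The counts then ranged from 1923 (without CTRL replicate 1) to 2721 genes, with 1974 without OE-WT replicate 1. They were 1 to 2 of the 10 genes, 1 to 2 other family genes, 0 to 1 MuvB genes, 1 to 3 G1 genes, 1 to 3 co-repressors, 2 to 4 transcription factors, 1 to 2 Polycomb genes, 1 to 2 ubiquitin ligase genes and 18 to 29 E2F targets. Among the 10 genes, the other family genes and the called list genes named in the text, signs changed only for genes that were not called: with library size only, CDKN1B was at -0.041, E2F1 at -0.029 and E2F6 at -0.083, and E2F6 was at -0.012 without the filter. With 1 library left out, log2 fold changes ranged from -0.15 to 0.11 for CDKN1A, -0.038 to 0.147 for CDKN1B, -0.37 to 0.13 for RBL2, -0.032 to 0.160 for E2F1, -0.236 to 0.081 for E2F5 and -0.081 to 0.101 for E2F6. The cause of these changes was not tested. The deviations of same-numbered libraries were nearly uncorrelated across genes (correlation, -0.07), which does not show whether these libraries were prepared as pairs. With the replicate block, 2658 genes and 3 of the 10 were called. Fewer than 10 counts per OE-WT library limit CDKN2A.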
